A study of Mus musculus with 12 samples.

Results

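The genes of the CD3 chains and of a set of T-lineage surface proteins were followed in NK cells and type 1 innate lymphoid cells (ILC1) sorted from mouse liver. The 10 genes were taken by symbol: Cd3d, Cd3e, Cd3g and Cd247, which encode the CD3 delta, epsilon, gamma and zeta chains, the co-receptor genes Cd4, Cd8a and Cd8b1, the scavenger receptor genes Cd5 and Cd6, and the costimulatory receptor gene Cd28. They are 10 of the 5545 genes analysed here. The question was whether these genes differ between ILC1 and NK cells as a block or chain by chain, and whether either cell type differs with diet.

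Female C57BL/6 mice (C57BL/6J in the study's methods) were given from weaning either RM1 diet (lean) or 824018, a 45% AFE fat diet, with added condensed milk (obese), for 12 weeks. Cells negative for a lineage cocktail and positive for NK1.1 were sorted from each liver as CD49a- CD49b+ (NK cells) or CD49a+ CD49b- (ILC1), and libraries were made from 2 ng of RNA with a low input kit. There were 3 lean and 3 obese mice, and each gave 1 NK and 1 ILC1 library, so the 12 libraries form 4 groups of 3. Lean and obese mice share the replicate numbers 25, 26 and 27 but are different animals. The lineage cocktail included antibodies to CD3 and CD8 alpha, so cells with CD3 or CD8 alpha protein on the surface were gated out. The values below are therefore transcript levels in populations chosen to lack those proteins.

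The T cell receptor on an alpha beta or gamma delta T cell has short cytoplasmic tails and signals through the CD3 gamma, delta and epsilon chains and through a zeta chain dimer, whose tyrosine motifs are phosphorylated by Lck and bound by ZAP-70. The zeta chain is also used outside T cells: in NK cells it is an adaptor of the natural cytotoxicity receptor NKp46. CD4 and CD8 bind class II and class I molecules of the major histocompatibility complex, CD28 binds CD80 and CD86, and CD5 and CD6 dampen signalling from the receptor. Innate lymphoid cells carry no rearranged T cell receptor on their surface, but they arise from lymphoid precursors that share part of their gene expression with T cell precursors.

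Cd3g, Cd3d and Cd3e are neighbours on chromosome 9. In the GENCODE annotation of GRCm38, the build that the submitters' processing notes call mm10, Cd3g (ENSMUSG00000002033.14) spans chr9:44969572-44980431 on the minus strand. Cd3d (ENSMUSG00000032094.8) spans chr9:44981786-44987339 on the plus strand, so both genes read away from a gap of 1354 bp between their starts. Cd3e (ENSMUSG00000032093.7) spans chr9:44998740-45009627 on the minus strand, 11400 bp from Cd3d. Cd247 lies apart from them at chr1:165788681-165877277. Cd8b1 and Cd8a are neighbours on chromosome 6, where Cd4 also lies at a distance, Cd5 and Cd6 are neighbours on chromosome 19, and Cd28 lies on chromosome 1. Cd3e overlaps the antisense gene Gm48719 and Cd247 overlaps Pou2f1, which reads the other way. Whether the counting used strand is not given in the sources used here, so reads of overlapping genes cannot be told apart. Cd3g, Cd3d and Cd3e do not overlap one another.

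The promoters of the 3 neighbouring CD3 genes and of Cd247 are shown because these 4 genes carry the differences described below. Each sequence is from RefSeq on GRCm38.p6, from 250 bases before to 50 bases after the start of the gene, written 5′ to 3′ on the gene's strand, with each ACTTCC or its reverse complement GGAAGT, the core of the binding motif of Ets family factors, in capitals:
Cd3g, chr9:44980382-44980681, minus strand: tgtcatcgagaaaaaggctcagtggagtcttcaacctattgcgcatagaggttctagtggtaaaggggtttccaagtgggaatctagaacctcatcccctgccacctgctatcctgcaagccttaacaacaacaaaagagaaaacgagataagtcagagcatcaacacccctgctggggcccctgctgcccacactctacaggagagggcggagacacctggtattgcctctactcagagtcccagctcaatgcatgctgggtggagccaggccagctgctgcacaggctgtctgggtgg
Cd3d, chr9:44981536-44981835, plus strand: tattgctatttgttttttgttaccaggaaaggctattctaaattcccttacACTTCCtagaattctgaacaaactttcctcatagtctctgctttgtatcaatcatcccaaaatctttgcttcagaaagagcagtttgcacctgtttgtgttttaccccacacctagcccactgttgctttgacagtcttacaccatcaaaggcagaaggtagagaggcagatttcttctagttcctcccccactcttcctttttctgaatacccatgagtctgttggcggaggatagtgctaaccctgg
Cd3e, chr9:45009562-45009861, minus strand: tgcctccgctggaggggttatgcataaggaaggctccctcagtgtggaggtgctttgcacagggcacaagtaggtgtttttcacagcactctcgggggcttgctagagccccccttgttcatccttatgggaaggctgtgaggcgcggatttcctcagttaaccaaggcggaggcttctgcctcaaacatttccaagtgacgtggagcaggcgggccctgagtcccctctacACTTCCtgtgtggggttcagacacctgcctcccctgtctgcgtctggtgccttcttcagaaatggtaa
Cd247, chr1:165788431-165788730, plus strand: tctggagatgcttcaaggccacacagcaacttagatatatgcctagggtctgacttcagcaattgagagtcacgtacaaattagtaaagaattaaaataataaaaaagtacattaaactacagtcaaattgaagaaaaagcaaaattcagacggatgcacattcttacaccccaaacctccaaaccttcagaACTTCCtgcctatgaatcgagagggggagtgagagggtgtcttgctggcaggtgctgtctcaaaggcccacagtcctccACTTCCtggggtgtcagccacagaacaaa

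Promoter sequences were at hand for 6 of the 10 genes. ACTTCC on either strand was found 2 times in the Cd247 promoter, 1 time each in those of Cd3d, Cd3e and Cd5, and 0 times in those of Cd3g and Cd8a, and 23.8% of all 32851 promoters of the same length hold it. CANNTG is the E box to which basic helix-loop-helix factors such as E proteins bind, and it reads alike on both strands. It was found 4 times in the Cd3g promoter, 3 times in Cd8a, 2 times each in Cd3e, Cd247 and Cd5, and 1 time in Cd3d. Of all promoters, 72.3% hold at least 1, and the share by number of sites was not taken. Neither TATAAA (13.6% of promoters) nor TGTGGT, the core of the Runx motif (16.8%), was found in any of the 6. A match of letters is not a site of binding.

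Over the genes analysed here the libraries held 1666637 to 2826766 counts. Levels are given as the authors' normalized counts, which are counts divided by a factor for each library, and fold changes come from edgeR's quasi-likelihood test on the counts with all 12 libraries in 1 model. A called gene is one with a p under 0.05 after Benjamini-Hochberg adjustment over all 2606 genes tested and a difference of more than 2-fold. Of the 10 genes, 8 passed the filter on low counts, and Cd8a and Cd8b1 did not. The sorted identity was visible in the ILC1 marker Cxcr6, with mean normalized counts of 78 in lean NK cells, 299.7 in obese NK cells, 20998 in lean ILC1 and 11749 in obese ILC1. The NK cell markers Cmklr1 and Cx3cr1 summed to 952 to 2378 in NK cells and to 5 to 444 in ILC1, apart from 3153 in obese ILC1 replicate 26. Of that value Cx3cr1 gave 3111. Neither marker was called between ILC1 and NK cells over both diets or within either diet. Obese ILC1 replicate 26 stood apart. In it the hepatocyte gene Alb was at 154203 normalized counts, the Kupffer cell gene Clec4f at 10176 and Cd74, of the class II pathway, at 178451. The authors' factor for this library was 0.57, against 0.8148 to 1.516 for the others. Its normalized counts are thus large beside its counts. Values without it are given beside the results below. In bulk libraries, fewer cells of a type and less RNA per cell cannot be told apart.

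Cd3g, which encodes the gamma chain, had the largest difference between ILC1 and NK cells of the 4 members called. In lean NK cells it was at 120, 229 and 202 normalized counts in replicates 25, 26 and 27, and in lean ILC1 at 12468, 12983 and 13673. The lean ILC1 libraries lay close together, and no NK library came near them. In obese NK cells Cd3g was at 243, 385 and 202, and in obese ILC1 at 12599, 3493 and 2037. Thus 1 obese ILC1 library was at the lean level and the other two were far below it, although still above every NK library.

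Cd3d, which encodes the delta chain, was at 111, 159 and 78 normalized counts in lean NK cells and at 245, 364 and 186 in obese NK cells. It was at 746, 2012 and 721 in lean ILC1 and at 448, 1546 and 550 in obese ILC1. All ILC1 libraries were above all NK libraries, and replicate 26 was the highest in each of the 4 groups. Cd3e, which encodes the epsilon chain that pairs with both gamma and delta, was at 17, 35 and 11 in lean NK cells and at 74, 111 and 41 in obese NK cells. In lean ILC1 it was at 473, 1013 and 271, and in obese ILC1 at 369, 1475 and 199. The order of the replicates was the same as for Cd3d in lean mice, with replicate 26 highest and 27 lowest in both cell types.

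Cd247, which encodes the zeta chain, had the opposite pattern. It was at 3259, 3334 and 3594 normalized counts in lean NK cells and at 3068, 3156 and 3421 in obese NK cells, a narrow band over all 6 libraries. In lean ILC1 it was at 1179, 1413 and 1462, and in obese ILC1 at 2061, 809 and 1020. Every ILC1 library was below every NK library. Cd28 showed no such separation: it was at 1017, 1506 and 702 in lean NK cells and at 1167, 1230 and 1070 in obese NK cells. In lean ILC1 it was at 1024, 1085 and 897, and in obese ILC1 at 2356, 760 and 1772. NK and ILC1 libraries overlapped for Cd28 in both diets.

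**Figure D1:**
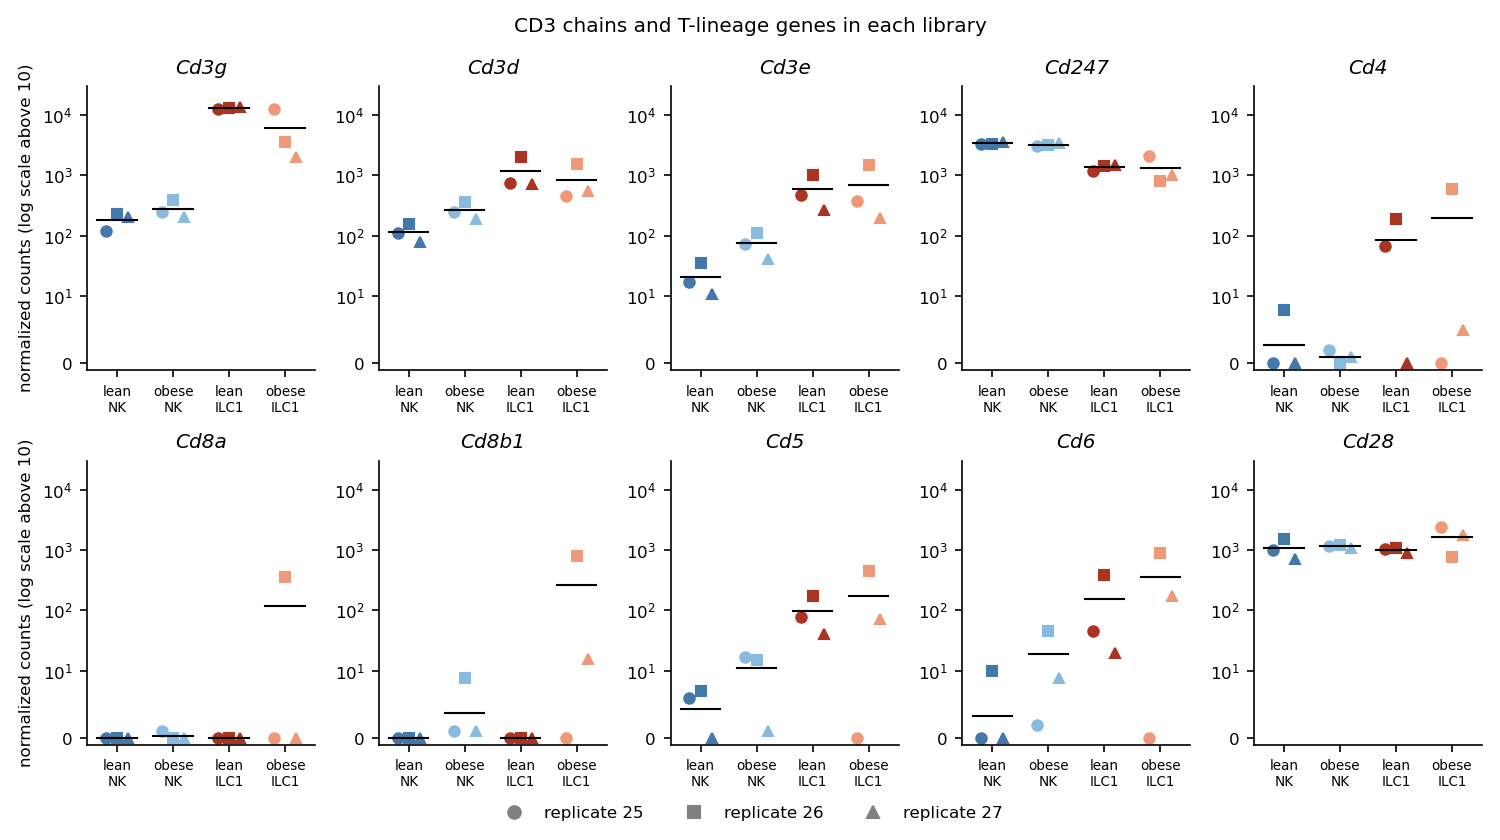
Normalized counts of the 10 genes in each of the 12 libraries, on a scale that is logarithmic above 10 and linear below. Points are libraries, with the shape giving the replicate number, and black lines are group means. Cd3g, Cd3d and Cd3e lie higher and Cd247 lower in every ILC1 library than in every NK library, and Cd8a reaches 353 in obese ILC1 replicate 26 while no other library is above 1.

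The co-receptor and scavenger receptor genes were low in NK cells and uneven in ILC1. Cd4 was at 0, 8 and 0 normalized counts in lean NK cells and at 2, 0 and 1 in obese NK cells, and at 68, 187 and 0 in lean ILC1 and 0, 586 and 5 in obese ILC1. Cd8a was at 0 in all lean libraries of both cell types, at 1, 0 and 0 in obese NK cells and at 0, 353 and 0 in obese ILC1. Cd8b1 was at 0 in all lean libraries, at 1, 9 and 1 in obese NK cells and at 0, 786 and 16 in obese ILC1. Transcripts of both CD8 chains at more than 20 normalized counts were thus seen in a single library, obese ILC1 replicate 26, which also held the hepatocyte and Kupffer cell transcripts given above. A count of 0 in a library allows a level of up to 3 counts there.

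Cd5 was at 6, 7 and 0 normalized counts in lean NK cells, at 17, 15 and 1 in obese NK cells, at 79, 176 and 41 in lean ILC1 and at 0, 444 and 72 in obese ILC1. Cd6, whose product binds ALCAM, was at 0, 10 and 0 in lean NK cells, at 2, 45 and 9 in obese NK cells, at 45, 391 and 20 in lean ILC1 and at 0, 888 and 170 in obese ILC1. Both genes were above all lean NK libraries in all 3 lean ILC1 libraries, and both were at 0 in obese ILC1 replicate 25. That library had Cd4, Cd8a, Cd8b1, Cd5 and Cd6 all at 0 beside Cd3g at 12599, Cd3d at 448 and Cd3e at 369. It was the ILC1 library with the fewest genes detected, 2014 of the 5545, against 2478 to 3292 in the other 5. Lean ILC1 replicate 27 likewise had Cd4, Cd8a and Cd8b1 at 0 beside Cd3g at 13673, while its Cd5 and Cd6 were at 41 and 20.

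Per kilobase of exon, which allows levels of different genes to be set side by side, the order of the members differed between the cell types. In lean NK cells the mean normalized counts per kilobase were highest for Cd247 at 637, followed by Cd28 at 176, Cd3d at 63.9, Cd3g at 56.2 and Cd3e at 5.15. Cd3d and Cd3g overlapped in their library values there, and the neighbours Cd28 and Cd3d did not. In lean ILC1 the order was Cd3g at 3989, Cd3d at 639, Cd247 at 254, Cd28 at 164 and Cd3e at 144, and Cd28 and Cd3e overlapped while the other neighbours among these did not. Cd4, Cd5 and Cd6 lay together between 19.1 and 21.1 with overlapping libraries. In obese ILC1 Cd3g was again first, at 1849 per kilobase.

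Between ILC1 and NK cells over both diets, 4 of the 8 members tested were called, 3 higher and 1 lower, where 4.34% of all 2606 genes tested were called (3.15% higher, 1.19% lower). Cd3g was higher in ILC1 by 5.28 ± 0.46 (SE) on the log2 scale, a 38.9-fold difference (adjusted p = 8.23e-05). Cd3e was higher by 3.94 ± 0.61 (adjusted p = 0.00315) and Cd3d by 2.47 ± 0.41 (adjusted p = 0.00522). Cd247 fell by 1.34 ± 0.21 (adjusted p = 0.00361), a 2.52-fold lower level in ILC1. These 4 genes were the members whose 6 ILC1 libraries did not overlap the 6 NK libraries, as was the case for 3.03% (higher) and 2.65% (lower) of all genes tested. Without obese ILC1 replicate 26 the 4 calls held, with log2 fold changes of 5.41 for Cd3g, 3.33 for Cd3e, 2.10 for Cd3d and -1.22 for Cd247. Each of the 4 was called in all 19 alternatives run for this comparison, the block for the mouse included, with which 46 of all genes were called in place of 113.

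The remaining members tested did not pass. Cd4, Cd5 and Cd6 had log2 fold changes of 6.13 ± 2.05, 4.18 ± 1.40 and 4.78 ± 1.64 with adjusted p-values of 0.115, 0.115 and 0.123, and ILC1 libraries at 0 overlapped the NK libraries in each case. Leaving out obese ILC1 replicate 26 gave Cd4, Cd5 and Cd6 log2 fold changes of 3.07, 3.09 and 3.79, and without obese ILC1 replicate 25, where all 3 were at 0, Cd5 (4.48, adjusted p = 0.0276) and Cd6 (5.08, adjusted p = 0.0438) were called. DESeq2 called all 3. Cd28 differed by 0.18 ± 0.28 (adjusted p = 0.854). The median log2 fold change of the 8 members was 4.06, against 0.04 over all genes tested. Cd4, Cd5 and Cd6 had at most 8, 22 and 68 counts in an NK library and owed their passing of the filter largely to ILC1 libraries. The median describes the 8 members and is no support for a shared difference.

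**Figure D2:**
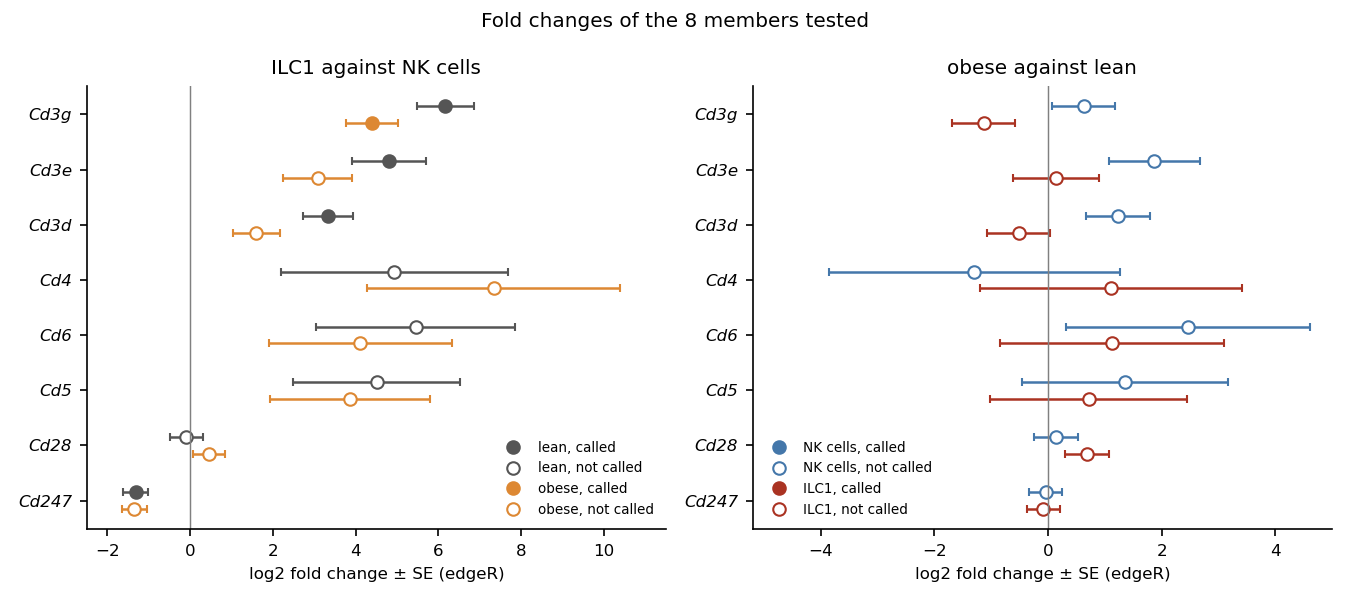
Log2 fold changes of the 8 members tested, with bars of 1 SE from edgeR, for ILC1 against NK cells in lean and obese mice (left) and for obese against lean mice in NK cells and ILC1 (right). Filled points were called. On the left Cd3g, Cd3e, Cd3d and Cd247 are called in lean mice and Cd3g in obese mice, and on the right no point is filled.

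In lean mice alone, 4 of the 8 members tested were called, against 2.3% of all genes tested (1.5% higher, 0.806% lower). Cd3g was higher in ILC1 by 6.17 ± 0.69 on the log2 scale (adjusted p = 0.000952), Cd3e by 4.80 ± 0.90 (adjusted p = 0.0164) and Cd3d by 3.34 ± 0.61 (adjusted p = 0.0135), and Cd247 fell by 1.32 ± 0.30 (adjusted p = 0.0457). The 5 members Cd3g, Cd3e, Cd3d, Cd5 and Cd6 had all lean ILC1 libraries above all lean NK libraries, which 13.6% of all genes did, and Cd247 had all below, which 11.4% did. The call of Cd3g held in all 19 alternatives. Those of Cd3d and Cd3e were lost when any single lean NK library was left out, with log2 fold changes of 3.11 to 3.63 and 4.50 to 5.38, and when lean ILC1 replicate 26 was, with 2.65 (adjusted p = 0.064) and 4.12 (adjusted p = 0.068). With both replicate 26 ILC1 libraries left out they held, at 2.65 (adjusted p = 0.0151) and 4.12 (adjusted p = 0.0274). The call of Cd247 was lost when any single one of 10 of the 12 libraries was left out, with log2 fold changes between -1.38 and -1.23, and with a block for the mouse (adjusted p = 0.146), which called 21 of all genes in place of 60.

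In obese mice alone, Cd3g was the 1 member called of 8, against 0.921% of all genes tested (0.537% higher, 0.384% lower). It was higher in ILC1 by 4.40 ± 0.63 on the log2 scale (adjusted p = 0.00807). Cd3e had a log2 fold change of 3.08 ± 0.83 (adjusted p = 0.112), Cd3d of 1.595 ± 0.57 (adjusted p = 0.22) and Cd247 of -1.36 ± 0.30 (adjusted p = 0.064). All obese ILC1 libraries were above all obese NK libraries for Cd3g, Cd3e and Cd3d, as for 9.4% of all genes, and below them for Cd247, as for 13.7%. Leaving out obese ILC1 replicate 26 gave Cd3g a log2 fold change of 4.68 (adjusted p = 0.00251), while those of Cd3e and Cd3d were 1.87 and 0.88, and Cd247 was then called (-1.10, adjusted p = 0.048). Without obese ILC1 replicate 25, the obese ILC1 library at the lean level of Cd3g, the log2 fold change of Cd3g was 3.24 and that of Cd247 was -1.88, both called (adjusted p = 0.00216). The call of Cd3g was lost with a block for the mouse (3.97, adjusted p = 0.096), with the 6 obese libraries fitted alone (4.39, adjusted p = 0.149), and without obese NK replicate 25 (4.31, adjusted p = 0.0795) or 27 (4.21, adjusted p = 0.0763).

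Whether the difference between cell types itself differed with diet was tested as an interaction. None of the 8 members was called, and 0% of all genes were, with 155 genes at an unadjusted p under 0.05 and 15 called by DESeq2, no member among them. The difference between ILC1 and NK cells in obese mice minus that in lean mice was -1.77 ± 0.78 on the log2 scale for Cd3g, -1.74 ± 0.79 for Cd3d and -1.72 ± 1.09 for Cd3e. Unadjusted p-values were 0.0455, 0.0493 and 0.143, and adjusted p-values 0.806, 0.818 and 0.947. Without obese ILC1 replicate 26 these values were -1.47, -2.44 and -2.91, and without obese ILC1 replicate 25 they were -2.93, -1.45 and -1.44, with no call. The calls made in lean mice and missed in obese mice for Cd3d, Cd3e and Cd247 are thus not shown to differ between the diets.

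In NK cells no member differed by the same criteria between obese and lean mice, where 0% of all genes were called by edgeR, 31 had an unadjusted p under 0.05 and DESeq2 called 9, no member among them. Cd3d and Cd3e were nevertheless higher in all 3 obese than in all 3 lean NK libraries, as 9.9% of all genes tested were, and no member was lower without overlap, as 6.33% were. The means were 265 ± 90.7 (SD, n = 3) against 116 ± 40.7 normalized counts for Cd3d, and 75.3 ± 35 against 21 ± 12.5 for Cd3e. In edgeR the log2 fold changes were 1.23 ± 0.56 (unadjusted p = 0.0516) and 1.87 ± 0.80 (unadjusted p = 0.0398), with adjusted p-values of 1 for both. Cd3g had a log2 fold change of 0.63 ± 0.55, with obese libraries at 202 to 385 overlapping the lean ones at 120 to 229. Cd247 and Cd28 differed by -0.04 ± 0.29 and 0.14 ± 0.39. The obese NK libraries also held more of the ILC1 markers Cxcr6 and Cd200r1 summed, 240 to 728 normalized counts against 69 to 135 in lean NK cells, and more of the 11 hepatocyte markers in 2 of 3 libraries, with sums of 208 to 816 against 38 to 221. The 5 dendritic cell markers summed to 7 to 282 in lean NK cells and 498 to 1134 in those of obese mice, without overlap, nearly all of it Cd74, which was at 781, 1132 and 495 in obese NK replicates 25, 26 and 27 and at 276, 180 and 7 in lean ones. The 4 neutrophil markers summed to 5 to 39 against 0 to 1. No gene of these lists was called in this comparison. Every obese NK library also had more counts than every lean one, 2306550 to 2826766 against 1845970 to 2136211. More genes were detected in each of them, 3075 to 3084 against 1948 to 2841. Lean NK replicate 27, at 1948 genes, was the lowest of its group for Cd3d and Cd3e. The part of these lists and of the depth in the levels of Cd3d and Cd3e was not tested.

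Between obese and lean ILC1 no member was called either. edgeR called 0% of all genes, 277 had an unadjusted p under 0.05 and DESeq2 called 75, no member among them. Cd3g was at a mean of 6043 ± 5724 (SD, n = 3) normalized counts in obese and 13041 ± 605 in lean ILC1, a log2 fold change of -1.13 ± 0.55 (adjusted p = 0.493). The groups overlapped through obese ILC1 replicate 25, at 12599, which lay between the lean libraries. Without that library Cd3g was called, at -2.30 (adjusted p = 0.0387), and without obese ILC1 replicate 26 it was at -0.84 (adjusted p = 0.661). Cd3e differed by 0.14 ± 0.76, Cd3d by -0.51 ± 0.55, Cd247 by -0.08 ± 0.29 and Cd28 by 0.68 ± 0.39. Cd4, Cd5 and Cd6 differed by 1.10 ± 2.31, 0.71 ± 1.73 and 1.13 ± 1.97. Without obese ILC1 replicate 26 the signs of 5 members turned: Cd3e to -1.05, Cd247 to 0.19, Cd4 to -4.98, Cd5 to -1.45 and Cd6 to -0.83. Cd3d was then at -1.22, and none of these was called. None of the 8 members had obese and lean ILC1 libraries that did not overlap, against 7.29% (higher) and 7.94% (lower) of all genes.

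Ratios between members within a library do not depend on the factor by which the library is normalized. The ratio of Cd3g to Cd3d was between 0.992 and 2.59 in the 6 NK libraries. It was 16.7, 6.45 and 18.96 in lean ILC1 replicates 25, 26 and 27, and 28.1, 2.26 and 3.70 in obese ILC1. The ratio was higher in the ILC1 than in the NK library of each of the 6 mice, and lowest in ILC1 in the replicate 26 library of each diet. The ratio of Cd3d to Cd3e lay the other way, between 3.28 and 7.09 in NK cells and between 1.05 and 2.76 in ILC1.

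Set against Cd3e in the same library, with 0.5 added to each normalized count, 3 members were lower in ILC1 than in NK cells in 6 of 6 mice. The mean difference in log2 ratio was -1.39 ± 0.44 (SD, n = 6) for Cd3d, -5.12 ± 1.36 for Cd247 and -3.59 ± 1.72 for Cd28. An exact two-sided sign-flip permutation test over the 6 mice gave p = 0.03125 for each, the smallest it can give, and adjusted over the 9 ratios p = 0.0938. Cd3g was higher relative to Cd3e by 1.39 ± 1.29, in 5 of 6 mice (exact sign-flip permutation p = 0.0625, adjusted p = 0.141). The exception was obese mouse 26. For Cd4, Cd8a, Cd8b1, Cd5 and Cd6, whose ratios rest on few counts in NK cells, the exact permutation p-values ran from 0.125 to 0.938. No ratio passed 0.05 after adjustment. With 9 ratios and a smallest p of 0.03125 in this permutation test, none could pass unless most of them reached that p, so the test decides little. Without obese mouse 26 the mean difference was 1.78 for Cd3g and -1.34 for Cd3d, with p at the smallest value 5 mice allow, 0.0625 by the exact permutation test.

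**Figure D3:**
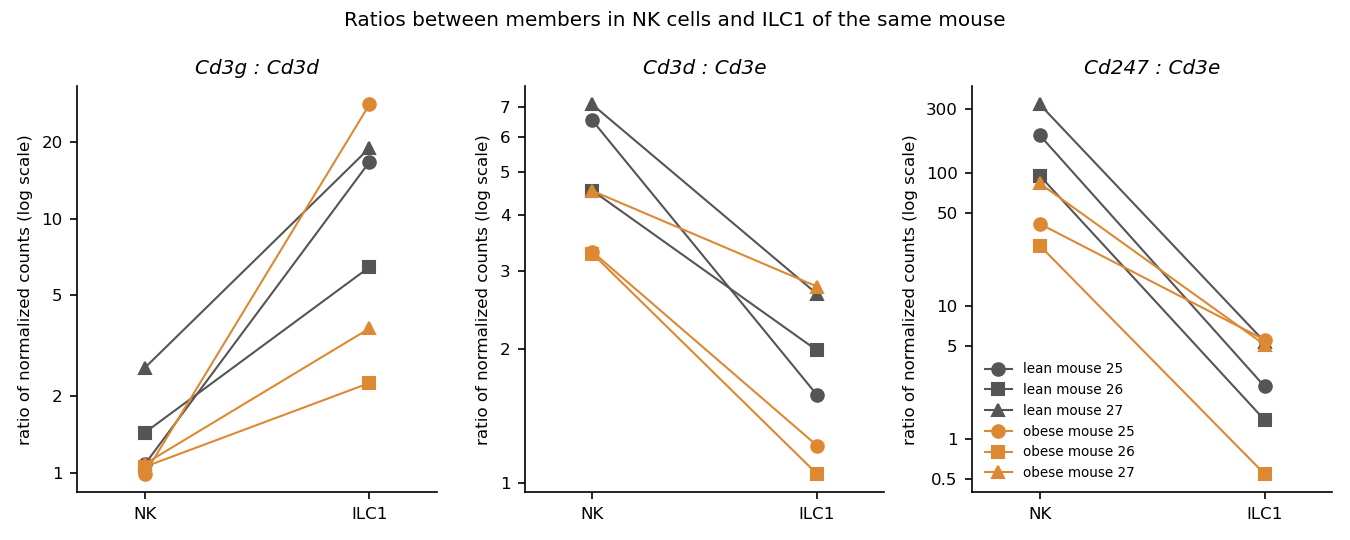
Ratios of normalized counts of Cd3g to Cd3d, Cd3d to Cd3e and Cd247 to Cd3e, on log scales, with a line joining the NK and ILC1 libraries of each of the 6 mice. Cd3g to Cd3d goes up and the other ratios go down along every line, and obese mouse 26 ends lowest in all 3 panels.

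Across the members, obese ILC1 replicate 26 was the highest of its group for 7 of the 10 genes, all but Cd3g, Cd247 and Cd28, and the lowest for Cd247 and Cd28. The replicate 26 library was also the highest for 7 genes in lean NK cells, 6 in obese NK cells and 6 in lean ILC1. Cd3d, Cd3e and Cd6 were highest in replicate 26 in all 4 groups, which held for 37 of the 2606 genes tested (1.42%), against 18 genes for replicate 25 and 31 for replicate 27, with no member in either. The labels do not say that the number stands for a shared batch or day. In lean ILC1 replicate 26, whose Cd3d, Cd3e and Cd6 were well above those of the other lean ILC1 libraries, the summed B cell, hepatocyte and Kupffer cell markers were at 269, 268 and 449 normalized counts, in each case the highest of the 3, where the other two lay at 149 and 252, 169 and 227, and 178 and 401. The summed dendritic cell markers were not highest in that library, at 1437 against 2211 in replicate 25 and 929 in replicate 27. The neutrophil markers were at 0 in all 3. The part of these lists in the higher levels was not tested.

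The genes whose log2 CPM (counts scaled to the library total) followed Cd3e most closely over the 12 libraries, among 2598 genes tested that are no members, were Actn1 (Pearson's r = 0.97), Cd93 (0.96), Adam8 (0.95), Cd63 (0.95) and Aqp9 (0.94). Among the members, Cd3d followed Cd3e with r = 0.98, Cd3g with 0.87 and Cd247 with -0.86, while Cd28 did not follow it (0.08). For Cd247 the closest were Anxa6 (0.97), Ahnak (0.96) and Arsb (0.95), all at lower means in ILC1 than in NK cells. The 12 points fall into NK cells and ILC1 and come in pairs from 6 mice, so these values describe that split and are given without a test.

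Other genes of the T lineage or of lymphocytes more widely that were analysed gave the members a setting. Several are not particular to T cells: Cd160, Cd226, Cd7 and Cd2 had means of 1005 to 7625 normalized counts in the NK groups. Of 19 T-lineage and lymphocyte surface or nuclear genes, 17 were tested between ILC1 and NK cells over both diets, 5 were called higher and 1 lower, with a median log2 fold change of 2.28 against 0.04 over all genes. Cd160, a receptor of cytotoxic lymphocytes, was higher by 2.82 ± 0.42 (adjusted p = 0.00244), from means of 1019 and 1947 normalized counts in lean and obese NK cells to 10827 and 9299 in ILC1. Cd7, an immunoglobulin family protein of T and NK cells, was higher by 2.58 ± 0.41 (adjusted p = 0.00361), and Cd226, the activating receptor DNAM-1, by 2.02 ± 0.29 (adjusted p = 0.00227). Cd40lg, the ligand of CD40, was at means of 0 and 1.67 in NK cells and 155 and 141 in lean and obese ILC1. Its library values were 152, 208 and 104 in lean ILC1 and 1, 340 and 83 in obese ILC1, low in replicate 25 like those of Cd4, Cd5 and Cd6. Bcl11b, a transcription factor of T cell commitment named here after its values were seen, was not called over both diets or within either diet. It was likewise at 514, 442 and 449 in lean ILC1 and at 2, 289 and 166 in obese ILC1, and at 31 to 81 in NK cells. The sum of the 19 genes went the other way in obese ILC1 replicate 25, at 96819 normalized counts, the highest of the 12 libraries. Camk4, a calcium-dependent kinase downstream of the T cell receptor, was higher by 3.61 ± 0.82 (adjusted p = 0.0257). Cd2, an adhesion receptor, fell by 1.14 ± 0.15 (adjusted p = 0.00132), in the same direction as Cd247.

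In lean mice 3 of the 17 were called higher and 1 lower, in obese mice 0 and 1, and 0 in the diet comparisons and the interaction. Leaving out obese ILC1 replicate 26, 5 of the list were called higher in obese ILC1, namely Cd160, Cd226, Cd7, Cd27 and Cd96, and in lean mice 4 were, with Cd96 added. Leaving out replicate 25 of that group, 1 was called higher in obese mice (Bcl11b) and 5 in lean mice. Of 13 genes analysed for signalling downstream of CD3 and CD28, Camk4 alone was called over both diets, and the median of the 13 was -0.30. Of 7 genes of ligands or their regulators, 5 were tested. Cd74, the class II invariant chain, and Ciita, the class II transactivator, were called higher in ILC1 over both diets, by 4.69 ± 1.10 (adjusted p = 0.0306) and 6.07 ± 1.54 (adjusted p = 0.0446). Cd74 had means of 1430 in lean and 62303 in obese ILC1, where replicates 25 and 27 were at 2353 and 6105 and replicate 26 at 178451. Without that library Cd74 was still called over both diets and Ciita was not, and the T-lineage list had 6 genes called higher, the 5 above and Cd96.

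Markers of other cells were uneven across the same libraries. The 5 dendritic cell markers, of which Cd74 gave most, summed to 7 to 282 normalized counts in lean NK cells and to 929 to 2211 in lean ILC1, without overlap as for Cd3g, Cd3d and Cd3e, and to 2353, 6199 and 181302 in obese ILC1. The 4 neutrophil markers summed to 0 in all lean ILC1 libraries and to 4, 25 and 8486 in obese ILC1, and the highest value of both lists was that of replicate 26. The part of these lists in the levels of the members was not tested. The 7 B cell markers summed to 111 to 439 normalized counts in the NK groups, to 149 to 269 in lean ILC1 and to 193, 454 and 18355 in obese ILC1, the last in replicate 26. The 11 hepatocyte markers summed to at most 816 in NK cells, 268 in lean ILC1 and 1349 in the other two obese ILC1 libraries, against 311453 in replicate 26. The 9 Kupffer cell and macrophage markers were at 1950 and 2077 in those other two libraries, above every lean ILC1 library at 178 to 449. Lean NK replicate 27 was at 1159 for the same list. Over both diets the B cell marker Cd79b, the hepatocyte markers Apoc1 and Apoc3 and the macrophage markers Adgre1, C1qa and C1qc were called higher in ILC1. Without obese ILC1 replicate 26 Apoc3 and Adgre1 were still called higher and the macrophage marker Cd163 was called lower. In lean mice no gene of these 3 lists was called, and without that library Apoc3 was called higher and Cd163 lower. The 2 gamma delta T cell scavenger receptor genes summed to at most 31 in NK cells, 16 in lean ILC1 and 179 in obese ILC1, and neither was called.

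**Figure D4:**
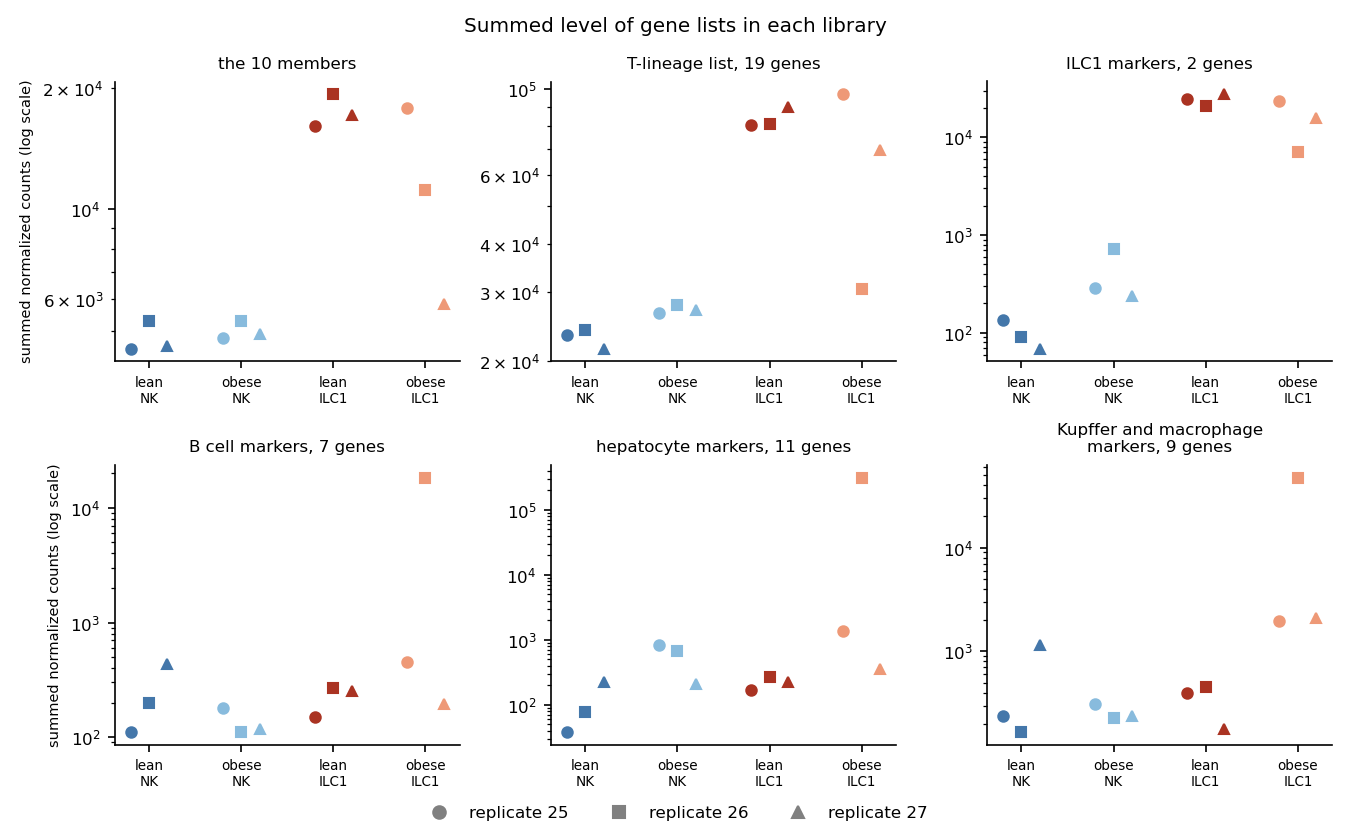
Summed normalized counts, on log scales, in each library. Shown are the 10 members, 19 T-lineage and lymphocyte genes, 2 ILC1 markers, 7 B cell markers, 11 hepatocyte markers and 9 Kupffer cell and macrophage markers. Obese ILC1 replicate 26 is far above all other libraries for the B cell, hepatocyte and Kupffer cell markers. It is the lowest ILC1 library for the sums of the T-lineage and lymphocyte genes and of the ILC1 markers. Cd7, at a mean of 49153 in lean ILC1, gives much of the T-lineage sum. Ccr7, of the same list, is at 3279 in obese ILC1 replicate 26 and at most 30 in every other library. The members Cd4, Cd8a, Cd8b1, Cd5 and Cd6 are also highest in obese ILC1 replicate 26.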

How the data were processed

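RNA was sequenced from NK cells and ILC1 of 6 mice, 12 libraries in all. The authors deposited 1 table with whole-number counts per gene and, as a score, the same counts divided by a factor for each library and rounded, called normalized counts here. The submitters' processing notes name bcl2fastq 2.19, Trimmomatic 0.36.5, STAR 2.5.2b, featureCounts 1.6.0.2 and mm10. Differential expression was analysed by the authors with SARTools at thresholds of 0.05 (adjusted p) and 2 (fold), which are kept here. The 5545 genes analysed here run alphabetically to Cyp26b1, and 1 incomplete row was left out, so later genes, such as those of the T cell receptor chains, were not analysed here. Totals of 1666637 to 2826766 counts per library cover these genes alone and understate the depth.

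Counts were tested with edgeR 4.0.16 in R 4.3.3 (TMM, filterByExpr, quasi-likelihood, 1 model of 4 groups, Benjamini-Hochberg adjustment). SEs were taken as the size of the log2 change over the square root of F. Alternatives were DESeq2 1.42.0, its size factors used in edgeR, the test run on unfiltered genes, the compared libraries alone, a replicate block and each library left out. The authors' factors, and leaving out both ILC1 libraries of replicate 26, were added after seeing the data. The scripts were tested on simulated data. NK cells and ILC1 with the same diet and number came from the same mouse, by the labels. Correlations of their deviations from the group means ran from -0.0763 to 0.141. No libraries held identical counts. Log2 CPM used a prior count of 2, and the floor for a count of 0 is 3 counts, covering counting error only. Named were all 10 members, the called genes of each list (the 4 with the most counts where more were called), and the genes most correlated with Cd3e (5) and Cd247 (3). Cd40lg, Bcl11b, Ccr7, Cd27, Cd96 and Cd163 were named after their values were seen. A marker gene of the B cell list is not reported here. The members and lists were chosen with earlier results of these data known. Positions are from GENCODE on GRCm38, matched by symbol.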

Additional observations from a re-analysis of the deposited data

How the results depend on the processing

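For ILC1 against NK cells over both diets, 4 members were called, and DESeq2 called 7. All genes called were 113, against 216 with DESeq2, 46 with the replicate block for the mouse and 63 to 161 with each library left out, and members 4 to 6. In lean mice 4 members and 60 genes were called, against 148 genes with DESeq2 and 21 with the replicate block, and 1 to 4 members and 29 to 102 genes with a library left out. In obese mice 1 member and 24 genes were called, against 3 members and 151 genes with DESeq2, 0 and 0 with the replicate block and with the compared libraries alone, and 0 to 2 members and 5 to 66 genes with a library left out. The replicate block for the mouse changed no other member call than those of Cd247 in lean and Cd3g in obese mice. Between the diets 0 genes were called, against 9 in NK cells, 75 in ILC1 and 15 in the interaction with DESeq2, and with a library left out 0 to 1, 0 to 6 and 0 to 1, with 0 to 1 members in ILC1. The replicate block for the number, which pairs different animals and whose pairs correlated between -0.0145 and 0.0768, called 0 genes in both diet comparisons.

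Some signs turned, all of values that were not called. In obese against lean ILC1, Cd3e was at -0.072 with the replicate block for the number, and Cd3e, Cd247 and Cd5 were at -0.39, 0.23 and -0.72 with both replicate 26 ILC1 libraries left out. With a library left out, in that comparison Cd3d ran from -1.22 to 0.15, Cd3e from -1.05 to 0.80, Cd247 from -0.61 to 0.19, Cd4 from -4.98 to 2.42, Cd5 from -1.45 to 1.43 and Cd6 from -0.83 to 3.37. Cd28 ran from -0.10 to 0.47 in obese against lean NK cells, from -0.33 to 0.23 in ILC1 against NK cells of lean mice and from -0.0037 to 0.34 over both diets. No member ratio to Cd3e passed 0.05 with a pseudocount of 1 or with Cd3g as the reference. The smallest p of the permutation test with 6 mice, 0.03125, left little room to pass there too. With a mouse left out the smallest p is 0.0625, so none could. The causes were not tested. Genes at few counts, such as Cd4, Cd8a and Cd8b1 in NK cells, limit what can be compared at this depth.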
